A study of Mus musculus with 9 samples.

Results

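The 35 genes described here are Trp53, which encodes the transcription factor p53, genes that p53 is known to regulate, and the genes of the CDK inhibitors, which hold back the cyclin-dependent kinases of the cell cycle. They were chosen by name, with earlier results of these data known, and all 35 have a row among the 43629 genes of the deposited table. RNA sequencing was done on bone marrow cells of mice, enriched for c-Kit (CD117), the receptor of stem cell factor, with a bead kit for positive selection. The mice were C57BL/6 in the labels, and each genotype received pIpC, which mimics viral RNA. The 9 libraries fell into 3 genotypes of 3 libraries each. Cbfb+/MYH11 mice (MYH11 below) carried 1 allele for the full-length fusion protein CBFβ-SMMHC. It joins CBFβ, which stabilises RUNX proteins on DNA, to part of a smooth muscle myosin, and arises in human leukaemias through inv(16). Cbfb+/mDE mice (mDE below) carried 1 allele for the same fusion with a changed multimerization domain at its C-terminus. WT mice carried the normal Cbfb gene. The sources used here give no age, Cre driver or number of mice per library, and the spread that p-values measure here is that between libraries, which may be technical. The study asked what the multimerization domain contributes to the effect of the fusion.

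p53 is kept scarce by Mdm2, a ubiquitin ligase, and its activity is damped by Mdm4, a relative of Mdm2. DNA damage and oncogene signals release it, and it then switches on genes for growth arrest, apoptosis, metabolic control and DNA repair, Mdm2 among them. The CDK inhibitors form the Cip/Kip family, which acts on cyclin E-CDK and related complexes, and the INK4 family, which binds Cdk4 and Cdk6. Several of them are known in blood for restraining the cycling of stem and progenitor cells, and Cdkn1a is also a p53 target.

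Whole reads were recovered for 100% of the deposited values, and the libraries held 39300366 to 50073097 reads. Myh11 checked the labels, with 176 to 219 normalised reads in MYH11, 28.7 to 43.8 in mDE and 4.70 to 8.64 in WT. Cbfb stood at 6349 to 6910 in MYH11, 4941 to 5782 in mDE and 6535 to 7136 in WT. Both genes were thus lower in mDE than in MYH11. The level of these transcripts and the change in the domain cannot be told apart in this design. Kit, the receptor used for selection, was present in every library, at 3226 to 3868 normalised reads in MYH11, 6987 to 7622 in mDE and 7354 to 7797 in WT. Markers of other cell types, chosen with earlier results of these data known, differed between genotypes. The summed share of 12 late neutrophil markers ranged over 0.777% to 2.37% of reads in MYH11, 12.2% to 15.1% in mDE and 10.8% to 12.7% in WT, and all 12 were called lower in MYH11 than in WT. For 13 mast cell and basophil markers the ranges were 0.329% to 0.511% in MYH11, 0.0584% to 0.0697% in mDE and 0.0632% to 0.0645% in WT, with 9 called higher and 3 lower in MYH11 than in WT of 12 tested. For 13 monocyte and MHC class II markers they were 0.739% to 0.815% in MYH11, 0.170% to 0.230% in mDE and 0.154% to 0.177% in WT, with 11 called higher and 1 lower. Erythroid markers took 0.325% to 0.478% in MYH11, 0.0989% to 0.184% in mDE and 0.140% to 0.166% in WT, and megakaryocyte markers 0.0140% to 0.0237% in MYH11, 0.00564% to 0.0102% in mDE and 0.00606% to 0.00904% in WT. T and NK cell markers took 0.00551% to 0.0105% in MYH11, 0.0139% to 0.0160% in mDE and 0.01998% to 0.0215% in WT, and the 6 c-Kit progenitor markers 0.334% to 0.413% in MYH11, 0.381% to 0.5003% in mDE and 0.468% to 0.568% in WT. Calls in MYH11 vs WT did not all follow these shares. Of 10 erythroid markers, 5 were called higher and 2 lower. Megakaryocyte markers gave 3 higher and 4 lower of 8, although their summed share was higher in MYH11. T and NK cell markers gave 0 higher and 4 lower of 8, and c-Kit progenitor markers 3 higher and 3 lower of 6. Ranges of MYH11 and WT overlapped for B cell markers and for stromal and endothelial markers. No marker in the 9 lists was at 0 in any genotype. The part of these shares in the results below was not tested, and in bulk RNA fewer cells of a type and less RNA per cell cannot be told apart.

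In MYH11 the genes moved in both directions, and Phlda3, Cdkn2a, Bbc3 and Cdkn1a showed the largest changes. Of the 35, 34 passed a filter on low counts and Cdkn2b did not. Cdkn2a passed it only through its MYH11 libraries, where it is high. Fold values are ratios of group means of normalised reads. Log2 fold changes are mean differences on the log2(value + 1) scale, and for scarce genes they can depart from the ratio of means. Means carry the SD over 3 libraries. In MYH11 vs WT, 15 of the 34 rose and 8 fell at a limma adjusted p under 0.05 (Benjamini-Hochberg over 15948 genes), which is 44.1% and 23.5%. Over all 15948 genes 32.0% rose and 27.8% fell, or 59.8% in either direction against 67.6% of the 34. The median log2 fold change was 0.20 over the 34 and 0.02 over all genes. All 3 MYH11 libraries lay above all WT libraries for 15 of the 34 genes and below them for 10, against backgrounds of 36.4% and 32.3% of all genes. Among the MYH11 libraries, replicate 2 lay nearest to WT for 17 of the 23 called genes, and replicate 3 lay farthest for 17. This order was not counted over all genes, so it is not shown to belong to these genes. Late neutrophil markers took 2.37% of reads in MYH11 replicate 2, 1.41% in replicate 1 and 0.777% in replicate 3. A link between these shares and the order was not tested.

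**Figure D1:**
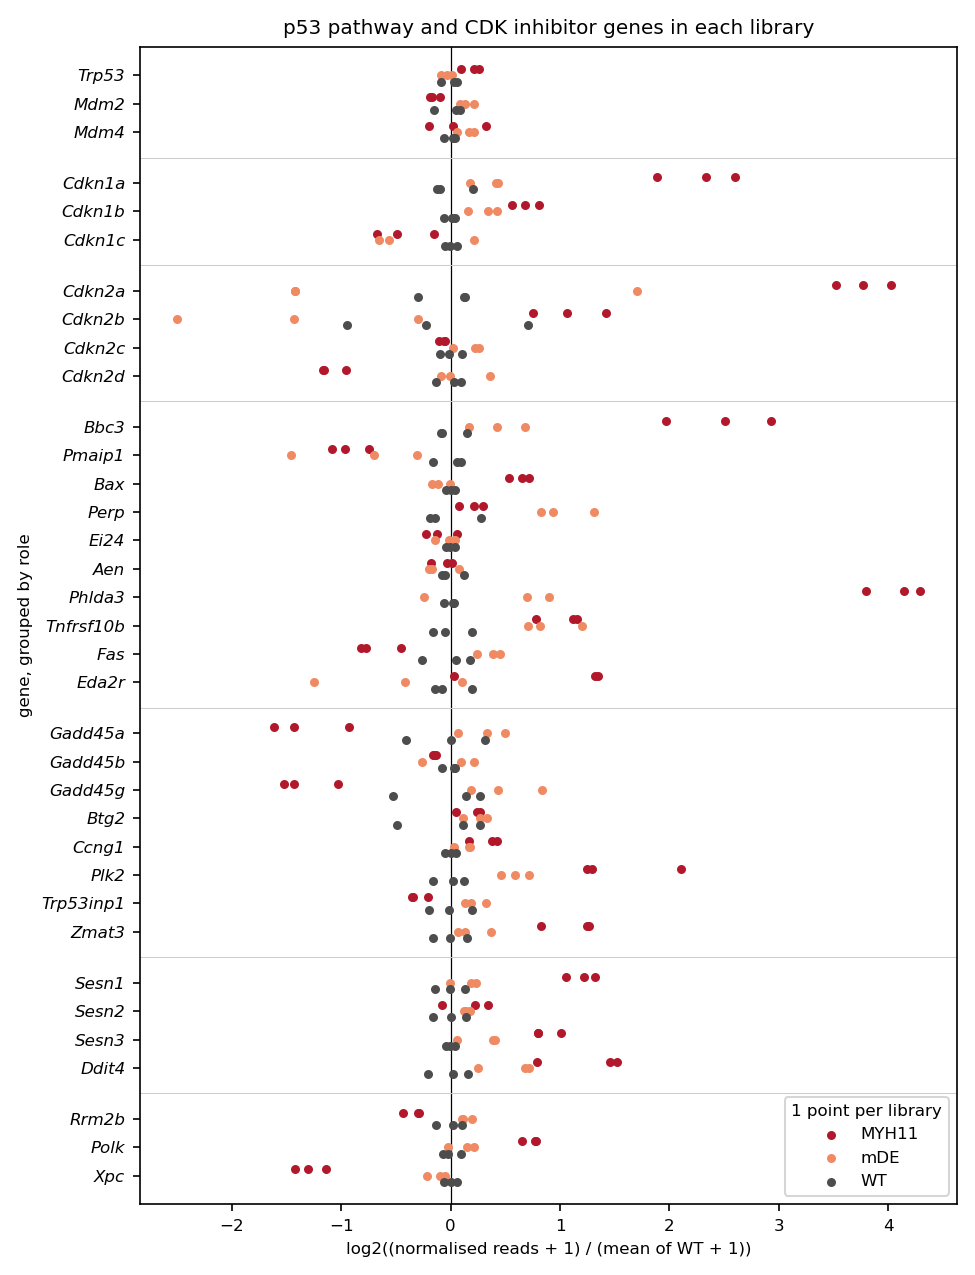
Each point is 1 library, placed by the log2 ratio of its normalised reads to the WT mean, with 1 added to both. Rows are the 35 genes grouped by role. Phlda3, Cdkn2a, Bbc3 and Cdkn1a stand far to the right in all 3 MYH11 libraries, while Gadd45a, Gadd45g, Xpc and Cdkn2d stand to the left.

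The gene of p53 itself changed little. Trp53 (ENSMUSG00000059552, chromosome 11, 69580359 to 69591873 in GRCm38) stood at 7412, 6845 and 7636 normalised reads in the MYH11 libraries, 6457, 6262 and 6014 in mDE and 6653, 6513 and 6007 in WT. The MYH11 libraries lay above all 6 others, by a small margin, and the gene rose 1.14-fold in MYH11 over WT (limma log2 fold change 0.19, SE 0.06, adjusted p = 0.0212). This call was lost without MYH11 replicate 1, MYH11 replicate 3 or WT replicate 3 (limma adjusted p = 0.0638, 0.0820 and 0.0855). Mdm2, the ubiquitin ligase that p53 induces and that in turn removes p53, stood at 2671, 2810.1 and 2634 normalised reads in the MYH11 libraries, 3184, 3287 and 3497 in mDE and 2708, 3115 and 3201 in WT. Its MYH11 libraries all lay below the mDE libraries and overlapped the WT ones. Mdm2 did not pass the test in MYH11 vs WT (log2 fold change -0.15, 95% interval -0.31 to 0.01, limma adjusted p = 0.0940), except without WT replicate 1 (limma adjusted p = 0.0130). It fell in MYH11 vs mDE (limma log2 fold change -0.30, SE 0.07, adjusted p = 0.00567). Mdm4, the inhibitory partner of Mdm2, averaged 5587 ± 1027 normalised reads in MYH11, 5926 ± 335 in mDE and 5343 ± 193 in WT (SD, n = 3 each), and its MYH11 libraries spread across the range of both other genotypes. Its 95% interval for MYH11 vs WT ran over -0.21 to 0.30 on the log2 scale. Without MYH11 replicate 2 it passed against mDE (limma adjusted p = 0.0311, log2 fold change -0.24).

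Among the Cip/Kip inhibitors, Cdkn1a and Cdkn1b rose in MYH11. Cdkn1a encodes p21, the best known p53-induced arrest protein (ENSMUSG00000023067, chromosome 17, 29090976 to 29100727 in GRCm38). It stood at 1239, 905 and 1483 normalised reads in the MYH11 libraries, 329.6, 277 and 326 in mDE and 281, 228 and 223 in WT. Every MYH11 library was far above the 6 others, which lay close together. Cdkn1a rose 4.95-fold in MYH11 over WT (limma log2 fold change 2.28, SE 0.18, adjusted p = 5.94e-06) and 3.89-fold over mDE (limma adjusted p = 1.76e-05). In mDE vs WT it did not pass the test, with a log2 fold change of 0.35 and a 95% interval of -0.05 to 0.75 (limma adjusted p = 0.304).

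Cdkn1a has 2 annotated start sites in RefSeq on GRCm38.p6, and the 250 bases before each are shown because the first holds a p53 full site, meaning 2 half-sites at most 13 bases apart. It was the 1 window of 36 with such a site (2.78%), against 0.0639% of all promoter windows. Cdkn1a was picked as a known p53 target, so this is a description and not a test. They are read 5′ to 3′ on the + strand, from chr17:29090729-29090978 and chr17:29093519-29093768, with matches to the p53 half-site in capitals.
Cdkn1a, first start: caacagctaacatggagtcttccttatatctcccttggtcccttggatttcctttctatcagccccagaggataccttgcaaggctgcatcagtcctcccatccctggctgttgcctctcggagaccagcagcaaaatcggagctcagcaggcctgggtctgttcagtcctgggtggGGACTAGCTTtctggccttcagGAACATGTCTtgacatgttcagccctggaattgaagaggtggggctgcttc
Cdkn1a, second start: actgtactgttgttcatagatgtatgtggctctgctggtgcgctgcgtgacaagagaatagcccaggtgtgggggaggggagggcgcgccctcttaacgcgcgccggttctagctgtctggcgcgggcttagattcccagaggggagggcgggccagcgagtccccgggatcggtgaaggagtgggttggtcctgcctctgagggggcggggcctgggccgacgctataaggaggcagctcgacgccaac
The window of the first start holds matches that begin 73 and 51 bases before it, and that of the second holds none. Only exact matches were marked, so tgacatgttc, which directly follows the second match and differs from the pattern in its first letter, stays in lower case. A match is only a run of letters, and gene counts do not tell from which start the reads came.

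Cdkn1b encodes p27, which restrains cyclin E-CDK complexes in resting cells. It stood at 3569.8, 3877 and 4226 normalised reads in the MYH11 libraries, 3070.0, 2703 and 3245 in mDE and 2321, 2446 and 2486 in WT. The 3 genotypes did not overlap, with MYH11 highest and WT lowest. It rose 1.61-fold in MYH11 over WT (limma log2 fold change 0.68, SE 0.08, adjusted p = 8.45e-05) and 1.29-fold over mDE (limma adjusted p = 0.00362). In mDE vs WT its log2 fold change was 0.31, which missed the threshold with limma (adjusted p = 0.0974) and passed with DESeq2 on the recovered reads (adjusted p = 0.0213). Cdkn1c, the gene of p57, an inhibitor of resting stem cells, was scarce throughout, at 20.8, 16.2 and 14.2 normalised reads in the MYH11 libraries, 14.3, 27.0 and 15.3 in mDE and 24.1, 23.0 and 22.3 in WT. The MYH11 libraries lay below the WT libraries, while the mDE libraries spanned both, and no comparison passed the test (limma adjusted p = 0.211 in MYH11 vs WT).

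Among the INK4 genes, Cdkn2a rose in MYH11 and Cdkn2d fell. Cdkn2a (ENSMUSG00000044303, chromosome 4, 89274471 to 89294653 in GRCm38) encodes p16 and, from another start and reading frame, Arf, which blocks Mdm2. It was near absent outside MYH11, with 47, 35 and 40 reads in the MYH11 libraries, 7, 0 and 0 in mDE and 2, 2 and 1 in WT. In normalised reads these were 42.5, 29.8 and 35.4 in MYH11, 7.72, 0 and 0 in mDE and 1.93, 1.92 and 1.17 in WT, and a library with 0 reads allows up to 3 reads, or 2.56 to 3.52 normalised reads. No MYH11 library overlapped either other genotype. Cdkn2a passed the filter on low counts only through its MYH11 libraries. Its adjusted p-values therefore describe the gene and are no independent support for a rise. The rise in MYH11 over WT passed the test (limma adjusted p = 0.00174), and the ratio of summed reads was 21.0 with an exact 95% counting interval of 8.75 to 65.7. Against mDE the ratio was 15.0, with an interval of 7.06 to 38.1 (limma adjusted p = 0.00111). The log2 fold change against mDE was 4.15, and 5.19 without mDE replicate 1, the mDE library that held all its reads. These intervals cover counting error only. Cdkn2b, the gene of p15 and the neighbour of Cdkn2a, had 12, 10 and 16 reads in MYH11, 1, 4 and 0 in mDE and 2, 4 and 7 in WT. It did not pass the filter, and the ratio of summed reads in MYH11 over WT was 2.51 with a counting interval of 1.31 to 5.14. With no filter, this difference did not pass over the spread between libraries (limma adjusted p = 0.140). In MYH11 over mDE the ratio was 6.54, with a counting interval of 2.57 to 21.3, and passed with no filter (limma adjusted p = 0.00816).

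The 250 bases before the starts of Cdkn2a are shown because its transcripts for Arf and p16 begin apart, read 5′ to 3′ on the - strand from chr4:89294620-89294869 and chr4:89282193-89282442 in GRCm38.p6 (RefSeq). On this strand the Arf start comes first.
Cdkn2a, Arf start: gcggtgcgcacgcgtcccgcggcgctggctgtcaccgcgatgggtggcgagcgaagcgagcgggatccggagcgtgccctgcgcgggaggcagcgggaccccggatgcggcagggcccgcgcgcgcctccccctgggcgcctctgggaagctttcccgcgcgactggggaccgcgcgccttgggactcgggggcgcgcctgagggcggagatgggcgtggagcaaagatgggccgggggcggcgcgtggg
Cdkn2a, p16 start: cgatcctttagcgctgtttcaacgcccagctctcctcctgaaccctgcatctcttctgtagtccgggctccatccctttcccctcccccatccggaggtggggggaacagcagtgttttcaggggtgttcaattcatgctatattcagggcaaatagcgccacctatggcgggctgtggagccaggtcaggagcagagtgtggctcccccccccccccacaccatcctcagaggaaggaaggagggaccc
Neither window holds the p53 half-site or the RUNX core described below. The table has 1 value for the gene, so reads from these starts were not told apart.

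Cdkn2d, the gene of p19-INK4d, was abundant in WT and fell in MYH11. It stood at 1909, 2195 and 1887 normalised reads in the MYH11 libraries, 4238, 3984 and 5463 in mDE and 3863, 4544 and 4339 in WT. All MYH11 libraries lay below all others, at about the same level as each other. It fell 2.13-fold in MYH11 against WT (limma log2 fold change -1.09, SE 0.12, adjusted p = 4.84e-05) and 2.28-fold against mDE (limma log2 fold change -1.18, SE 0.12, adjusted p = 3.25e-05). Cdkn2c, the gene of p18, stood at 2662, 2684 and 2579 normalised reads in the MYH11 libraries, 3239.7, 2821 and 3328 in mDE and 2984, 2741 and 2603 in WT. Its MYH11 and WT libraries overlapped (95% interval -0.24 to 0.10 on the log2 scale, limma adjusted p = 0.441). It was lower in MYH11 than in mDE (limma log2 fold change -0.24, SE 0.07, adjusted p = 0.0198), a call lost without MYH11 replicate 3, mDE replicate 1 or 3 (limma adjusted p = 0.0632, 0.0626 and 0.0660).

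**Figure D2:**
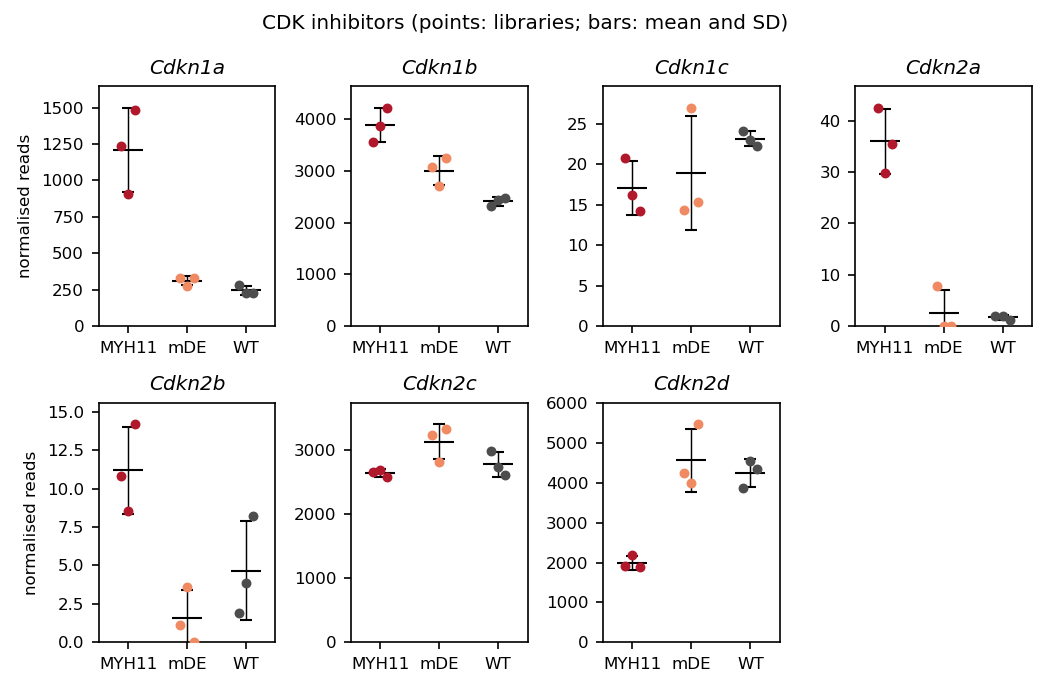
Normalised reads of the 7 CDK inhibitor genes, with 1 point per library and bars for mean and SD (n = 3), where bars that would pass below 0 end at the axis. Cdkn1a and Cdkn2a separate MYH11 from both other genotypes upward, Cdkn2d does so downward, and Cdkn1b shows mDE between MYH11 and WT.

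Apoptosis genes that p53 induces did not move as a block. In MYH11 vs WT, 4 of 10 rose (Phlda3, Bbc3, Bax and Tnfrsf10b), 2 fell (Pmaip1 and Fas) and 4 did not pass the test, where 32.0% of all genes rose and 27.8% fell. Phlda3 encodes a pleckstrin-homology protein that competes with Akt for membrane lipids (ENSMUSG00000041801, chromosome 1, 135766119 to 135769136 in GRCm38). It stood at 734, 576 and 812 normalised reads in the MYH11 libraries, 34.2, 66.6 and 76.6 in mDE and 41.5, 41.3 and 38.8 in WT. Every MYH11 library was far above every other library. Phlda3 rose 17.5-fold in MYH11 over WT (limma log2 fold change 4.08, SE 0.28, adjusted p = 2.86e-06) and also rose over mDE (limma log2 fold change 3.62, SE 0.28, adjusted p = 6.70e-06).

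Bbc3 encodes Puma, a BH3-only activator of apoptosis (ENSMUSG00000002083, chromosome 7, 16308393 to 16318205 in GRCm38). It stood at 474, 326 and 635 normalised reads in the MYH11 libraries, 111, 133 and 93.0 in mDE and 78.2, 77.7 and 91.6 in WT. The MYH11 libraries were the highest, with the widest spread among themselves. Bbc3 rose 5.80-fold in MYH11 over WT (limma log2 fold change 2.47, SE 0.24, adjusted p = 2.17e-05) and 4.25-fold over mDE (limma adjusted p = 7.80e-05). Bax, the pore-forming effector on which BH3-only proteins act, stood at 2433, 2231 and 2545 normalised reads in the MYH11 libraries, 1537, 1368 and 1426 in mDE and 1549, 1583 and 1501 in WT. It rose 1.56-fold in MYH11 over WT (limma log2 fold change 0.64, SE 0.07, adjusted p = 3.56e-05), and its mDE and WT libraries overlapped. Pmaip1, the gene of Noxa, another BH3-only protein, went the other way, at 145, 114 and 124 normalised reads in the MYH11 libraries, 88.2, 149 and 197 in mDE and 218, 260.1 and 254 in WT. WT was highest, and MYH11 and mDE overlapped. Pmaip1 fell 1.91-fold in MYH11 against WT (limma log2 fold change -0.93, SE 0.26, adjusted p = 0.0116). In mDE vs WT it was -0.82 on the log2 scale, with all mDE libraries below WT, and did not pass the test (limma adjusted p = 0.142).

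The death receptor genes differed from each other. Tnfrsf10b, the gene of the TRAIL receptor, was scarce, at 96.7, 76.7 and 99.2 normalised reads in the MYH11 libraries, 78.3, 72.9 and 103 in mDE and 42.5, 39.4 and 50.5 in WT. MYH11 and mDE libraries overlapped each other and lay above all WT libraries. It rose 2.06-fold in MYH11 over WT (limma log2 fold change 1.02, SE 0.20, adjusted p = 0.00164). In mDE it was 1.92 times the WT mean, which missed the threshold with limma (adjusted p = 0.0634) and passed with DESeq2 (adjusted p = 0.00857). Fas, the receptor of Fas ligand, stood at 260.3, 326 and 253 normalised reads in the MYH11 libraries, 528, 611 and 584 in mDE and 372, 462 and 506 in WT. The genotypes did not overlap, with mDE highest and MYH11 lowest. Fas fell 1.60-fold in MYH11 against WT (limma log2 fold change -0.67, SE 0.14, adjusted p = 0.00251) and 2.06-fold against mDE (limma adjusted p = 0.000192). Eda2r, the ectodysplasin A2 receptor, had only 3 to 28 reads a library, and passed the filter on low counts mainly through its MYH11 libraries. It was higher in MYH11 than in mDE (limma log2 fold change 1.42, SE 0.45, adjusted p = 0.0226), a call lost without MYH11 replicate 1, MYH11 replicate 3 or the mDE library numbered 3 (limma adjusted p = 0.0793, 0.0824 and 0.0775). Against WT it passed only without MYH11 replicate 2 (limma adjusted p = 0.0201, against 0.108 with all libraries).

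Perp, which encodes a membrane protein of epithelial junctions that p53 induces during apoptosis, was the 1 gene of the 34 called in mDE vs WT (ENSMUSG00000019851, chromosome 10, 18845020 to 18857073 in GRCm38). It stood at 169.9, 198 and 186 normalised reads in the MYH11 libraries, 308, 400.2 and 286 in mDE and 146, 141 and 195 in WT. The mDE libraries lay above all others, while MYH11 and WT overlapped. Perp rose 2.06-fold in mDE over WT (limma log2 fold change 1.04, SE 0.17, adjusted p = 0.0291) and was 1.79-fold lower in MYH11 than in mDE (limma adjusted p = 0.00256). In MYH11 vs WT it did not pass the test (limma log2 fold change 0.21, SE 0.17, adjusted p = 0.308). The call in mDE was lost when only mDE and WT were fitted (limma adjusted p = 0.0835). It was also lost without MYH11 replicate 1 or 3, mDE replicate 2, or WT replicate 1 or 2 (limma adjusted p = 0.0523, 0.0513, 0.0673, 0.0834 and 0.115). No other gene called in mDE lay within 1 Mb of Perp, and the nearest, Plagl1, lay 5.71 Mb away. Ei24 and Aen, an endoplasmic reticulum protein and a nuclease that p53 induces, passed in no comparison. Their 95% intervals in MYH11 vs WT were -0.27 to 0.08 and -0.28 to 0.15 on the log2 scale.

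Among the growth arrest and stress genes, Plk2, Zmat3 and Ccng1 rose in MYH11, and Gadd45a, Gadd45g and Trp53inp1 fell. The Gadd45 proteins activate stress kinases and bind cell cycle and repair factors. Gadd45a stood at 481, 684 and 423 normalised reads in the MYH11 libraries, 1358, 1633 and 1835 in mDE and 978, 1303 and 1615 in WT. MYH11 lay below every other library, and mDE and WT overlapped. It fell 2.45-fold in MYH11 against WT (limma log2 fold change -1.29, SE 0.22, adjusted p = 0.000690) and 3.04-fold against mDE (limma adjusted p = 0.000187). Gadd45g stood at 146, 193 and 136 normalised reads in the MYH11 libraries, 448, 533 and 703 in mDE and 272, 475 and 433 in WT. It fell 2.49-fold against WT (limma log2 fold change -1.29, SE 0.24, adjusted p = 0.00137) and 3.55-fold against mDE (limma adjusted p = 0.000182). Gadd45b averaged 735 ± 7.90 in MYH11, 832 ± 139 in mDE and 815 ± 36.0 in WT, and passed in neither comparison with MYH11 (limma adjusted p = 0.280 against WT and 0.245 against mDE). Without mDE replicate 1 it passed against mDE (limma adjusted p = 0.00839).

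Plk2, a polo-like kinase of early cell cycle, stood at 57.8, 59.7 and 105 normalised reads in the MYH11 libraries, 33.1, 39.6 and 36.1 in mDE and 24.1, 25.9 and 21.1 in WT. The 3 genotypes did not overlap, in the order MYH11, mDE and WT from high to low. It rose 3.13-fold in MYH11 over WT (limma log2 fold change 1.56, SE 0.25, adjusted p = 0.000602). Zmat3, a zinc finger RNA-binding protein, averaged 338 ± 55.5 in MYH11, 177 ± 19.9 in mDE and 155 ± 16.6 in WT, and rose 2.19-fold in MYH11 over WT (limma adjusted p = 0.000228). Ccng1, cyclin G1, which feeds back on Mdm2, averaged 5350.0 ± 497 in MYH11, 4662 ± 259 in mDE and 4261 ± 151 in WT. It rose 1.26-fold over WT (limma adjusted p = 0.00421). Its call against mDE stood just inside the threshold (limma adjusted p = 0.0477) and was lost without any 1 of 8 libraries (limma adjusted p = 0.0545 to 0.163), with no filter (adjusted p = 0.0696) and in the fit of only those 2 genotypes (adjusted p = 0.0858); leaving out MYH11 replicate 2 kept it.

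Trp53inp1, a stress protein that promotes autophagy and p53 activity, averaged 3125 ± 189.7 in MYH11, 4471 ± 309 in mDE and 3847 ± 527 in WT. It fell 1.23-fold in MYH11 against WT (limma log2 fold change -0.29, SE 0.10, adjusted p = 0.0270), a call lost without MYH11 replicate 1 or 3 or WT replicate 2 or 3 (limma adjusted p = 0.0778, 0.0793, 0.0610 and 0.0922). Against mDE it fell 1.43-fold (limma adjusted p = 0.00158). Btg2, an antiproliferative factor of mRNA decay, passed in no comparison, and its WT libraries alone ranged over 2247, 3411 and 3795 normalised reads.

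Among the genes that link p53 to metabolic and redox control, Sesn1, Sesn3 and Ddit4 rose in MYH11 and Sesn2 did not pass the test. Sestrins restrain the growth kinase mTORC1 under stress. Sesn1 stood at 2642, 2355 and 2846 normalised reads in the MYH11 libraries, 1338, 1133 and 1294 in mDE and 1244, 1031 and 1132 in WT. The MYH11 libraries were clearly apart, and mDE and WT overlapped. It rose 2.30-fold in MYH11 over WT (limma log2 fold change 1.20, SE 0.10, adjusted p = 8.17e-06) and 2.08-fold over mDE (limma adjusted p = 1.95e-05). Sesn3 averaged 268 ± 22.8 in MYH11, 179 ± 23.6 in mDE and 146 ± 4.25 in WT, and rose 1.83-fold over WT (limma adjusted p = 0.000357). Sesn2 averaged 837 ± 124, 821 ± 15.3 and 741 ± 78.9 in the same genotypes and passed only without MYH11 replicate 2 (limma adjusted p = 0.0300, against 0.236 with all libraries). Ddit4, the gene of Redd1, another inhibitor of mTORC1, stood at 428, 257 and 408 normalised reads in the MYH11 libraries, 176, 237 and 244 in mDE and 151, 129 and 166 in WT. The genotypes did not overlap, in the order MYH11, mDE and WT from high to low. Ddit4 rose 2.46-fold in MYH11 over WT (limma log2 fold change 1.27, SE 0.22, adjusted p = 0.000755). Its rise over mDE (limma adjusted p = 0.0188) was lost without MYH11 replicate 1, MYH11 replicate 3 or mDE replicate 1 (limma adjusted p = 0.0718, 0.0684 and 0.0654).

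Of the DNA repair genes, Polk rose in MYH11, and Xpc and Rrm2b fell. Xpc, which recognises bulky lesions for nucleotide excision repair, had the smallest adjusted p of the 34 genes in MYH11 vs WT. It stood at 1634, 1988 and 1782 normalised reads in the MYH11 libraries, 3792, 4115 and 4225 in mDE and 4394, 4215 and 4564 in WT. Every MYH11 library was below every other library, and mDE and WT overlapped. Xpc fell 2.44-fold in MYH11 against WT (limma log2 fold change -1.29, SE 0.08, adjusted p = 1.36e-06) and 2.24-fold against mDE (limma adjusted p = 2.83e-06). Rrm2b, a ribonucleotide reductase subunit that supplies nucleotides for repair, averaged 819.9 ± 47.1 in MYH11, 1141 ± 42.1 in mDE and 1036 ± 86.1 in WT, and fell 1.26-fold in MYH11 against WT (limma adjusted p = 0.00446). Polk, a translesion DNA polymerase, averaged 582 ± 28.0, 379 ± 31.4 and 348 ± 21.4 in the same genotypes, and rose 1.67-fold in MYH11 over WT (limma adjusted p = 0.000115).

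**Figure D3:**
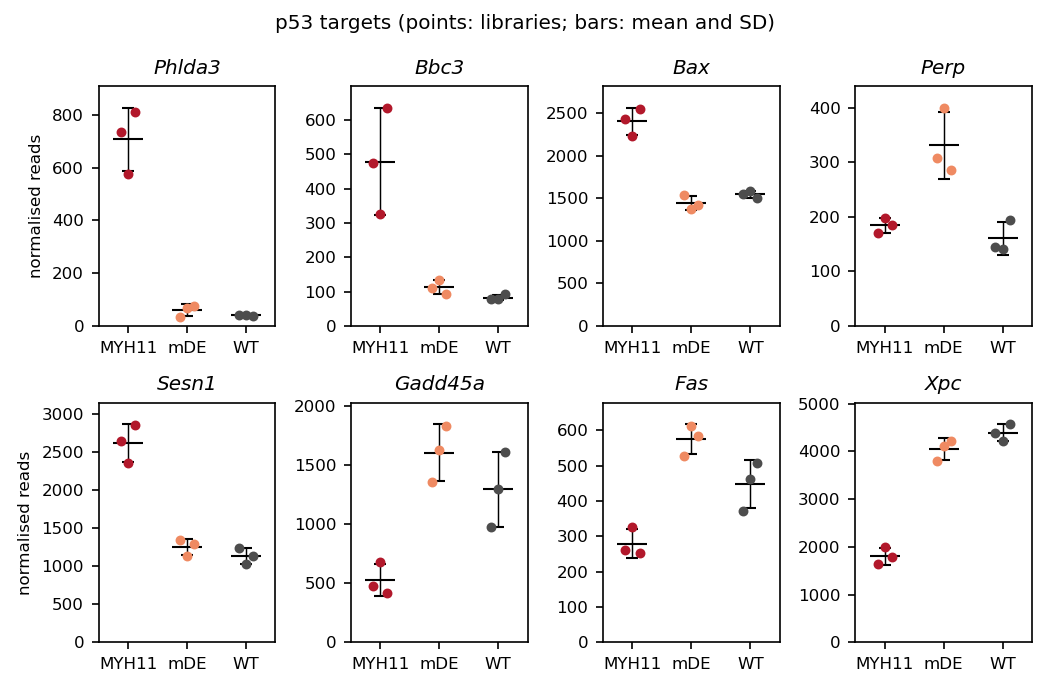
Normalised reads of 8 p53 targets, with 1 point per library and bars for mean and SD (n = 3). Phlda3, Bbc3, Bax and Sesn1 are highest in MYH11, Gadd45a, Fas and Xpc are lowest there, and Perp is highest in mDE.

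Promoter sequence was compared with these directions for the 27 genes that have RefSeq start windows on GRCm38.p6 (36 windows of 250 bases). The p53 half-site, searched on both strands, was present in 11 of 36 windows (30.6%), against 7.13% of all 32851 windows. The genes were picked in part as p53 targets, so this is a description and not a test. Windows of genes that rose in MYH11 held it in 6 of 19 cases (31.6%), and windows of genes that fell in 2 of 4 cases. The RUNX core, TGTGGT or TGCGGT on either strand, which is bound by the DNA-binding partners of CBFβ, was present in 4 of 36 windows (11.1%), against 18.6% of all windows. Its holders were Sesn2, Sesn3, Aen and Mdm2, of which Sesn3 changed in MYH11 vs WT. No match to one motif overlapped a match to the other. The windows of 3 further genes are shown, with half-sites in capitals. Phlda3 had the largest log2 fold change in MYH11 vs WT. Bax and Cdkn2d hold half-sites, in a gene that rose and one that fell.
Phlda3, chr1:135765835-135766084, + strand: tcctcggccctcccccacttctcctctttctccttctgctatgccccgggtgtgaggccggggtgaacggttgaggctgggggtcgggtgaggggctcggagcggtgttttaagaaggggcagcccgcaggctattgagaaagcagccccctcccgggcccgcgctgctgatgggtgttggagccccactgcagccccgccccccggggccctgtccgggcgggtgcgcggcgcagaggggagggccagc
Bax, chr7:45466899-45467148, - strand: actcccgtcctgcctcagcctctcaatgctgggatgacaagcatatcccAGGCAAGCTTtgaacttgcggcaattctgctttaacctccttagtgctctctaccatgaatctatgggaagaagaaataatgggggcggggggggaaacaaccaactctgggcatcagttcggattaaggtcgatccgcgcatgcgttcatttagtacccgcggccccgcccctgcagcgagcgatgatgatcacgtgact
Cdkn2d, chr9:21291210-21291459, - strand: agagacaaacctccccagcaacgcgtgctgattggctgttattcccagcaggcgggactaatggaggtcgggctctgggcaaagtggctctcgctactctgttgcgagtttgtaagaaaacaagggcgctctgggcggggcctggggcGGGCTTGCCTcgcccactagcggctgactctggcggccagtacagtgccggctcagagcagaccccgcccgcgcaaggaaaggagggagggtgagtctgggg
The Phlda3 window holds no half-site, the match before Bax begins 201 bases from the start, and that before Cdkn2d begins 102 bases from it. Known p53 sites of several of these genes lie in introns or farther upstream and were not searched.

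In mDE vs WT, 1 of the 34 genes rose (Perp, 2.94%) and 0 fell by limma. Over all genes 0.821% rose and 0.420% fell, or 1.24% in either direction. At an unadjusted p under 0.05, limma gave 8 higher and 1 lower (23.5% and 2.94%), against 11.3% and 8.53% of all genes. edgeR on the recovered reads called 1 higher and 0 lower, against 112 higher and 76 lower over all genes. DESeq2 called 3 higher and 0 lower, against 593 higher and 348 lower over all genes. The largest log2 fold change in mDE was that of Perp (1.04). The median log2 fold change of the 34 was 0.15, against 0.01 over all genes. All 3 mDE libraries lay above all WT libraries for 10 of the 34 genes, against a background of 13.9%, and below them for 1, against 12.1%. These 10 were Mdm4, Cdkn1b, Bbc3, Perp, Tnfrsf10b, Fas, Plk2, Sesn3, Ddit4 and Rrm2b, and the 1 was Pmaip1. Both comparisons with WT share the WT libraries. For the 4 genes with the largest rises in MYH11, the log2 fold changes against WT were 4.08 in MYH11 and 0.46 in mDE for Phlda3, and 3.79 and -0.36 for Cdkn2a. The value of Cdkn2a in mDE runs against its group means, which were 2.57 normalised reads in mDE and 1.67 in WT, since 2 mDE libraries were at 0. Its summed reads were 7 in mDE and 5 in WT, a ratio of 1.40 with a counting interval of 0.382 to 5.59, so no direction is read. The log2 fold changes were 2.47 in MYH11 and 0.43 in mDE for Bbc3, and 2.28 and 0.35 for Cdkn1a.

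**Figure D4:**
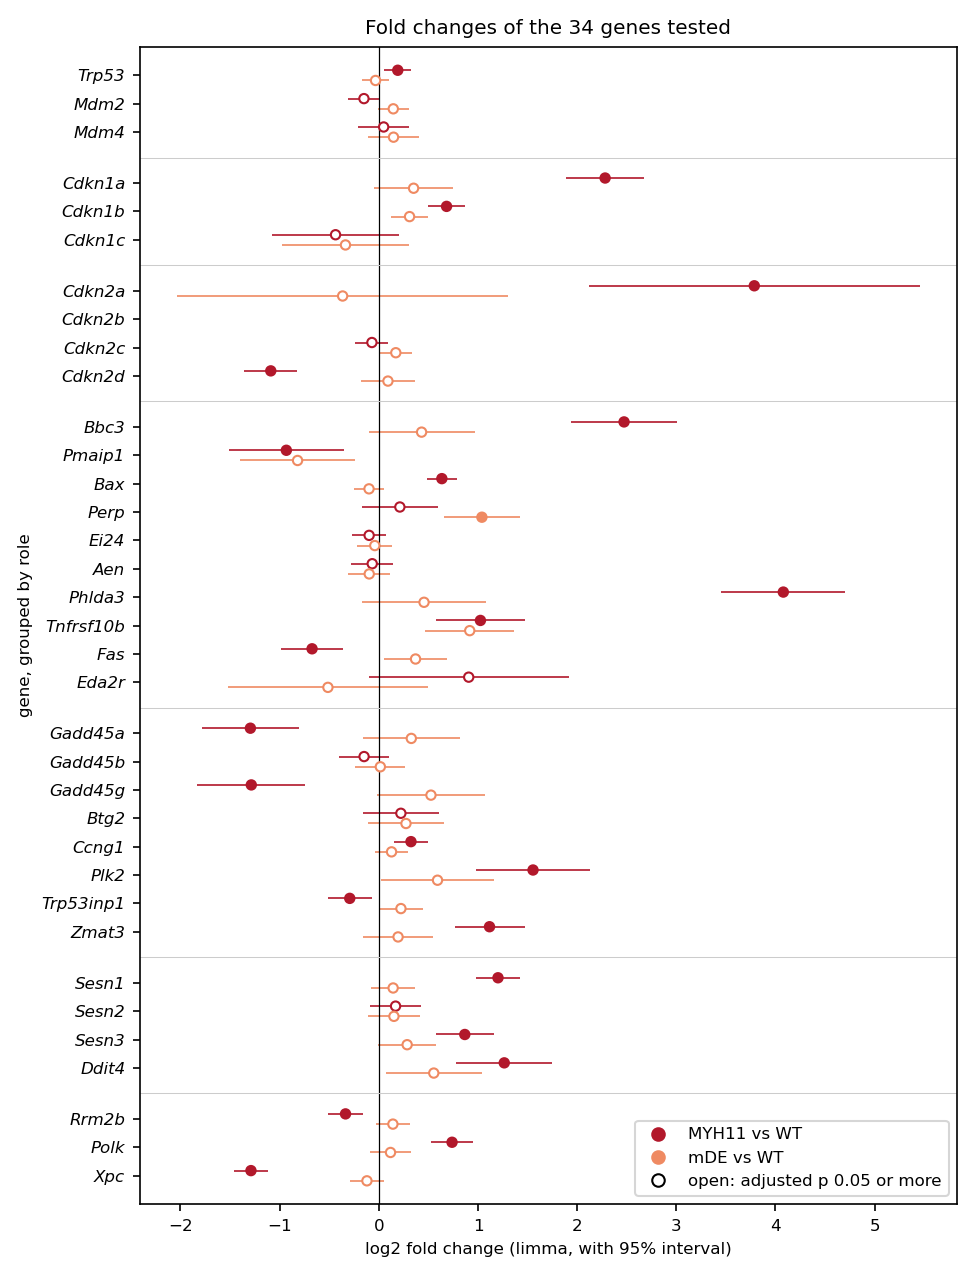
Log2 fold changes (limma) with 95% intervals for the 34 genes tested, MYH11 vs WT above mDE vs WT in each row. Filled points passed a limma adjusted p under 0.05 and open points did not, and both comparisons use the same WT libraries. In mDE the filled point is Perp, while 23 points are filled in MYH11.

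The direct comparison of the full-length fusion with the altered one gave 15 genes higher and 10 lower in MYH11 of 34 tested (limma adjusted p under 0.05), or 44.1% and 29.4%, against 29.6% and 26.0% of all genes (55.6% in either direction, against 73.5% of the 34). All MYH11 libraries lay above all mDE libraries for 13 of the 34 and below them for 10, against 33.2% and 29.0% of all genes. The median log2 fold change was 0.02 over the 34 and 0.03 over all genes. The 15 higher were Trp53, Cdkn1a, Cdkn1b, Cdkn2a, Bbc3, Bax, Phlda3, Eda2r, Ccng1, Plk2, Zmat3, Sesn1, Sesn3, Ddit4 and Polk. The 10 lower were Mdm2, Cdkn2c, Cdkn2d, Perp, Fas, Gadd45a, Gadd45g, Trp53inp1, Rrm2b and Xpc. Tnfrsf10b and Pmaip1, which changed in MYH11 vs WT, did not pass here (limma adjusted p = 0.673 and 0.738), with 95% intervals of -0.34 to 0.55 and -0.70 to 0.47 on the log2 scale.

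Levels were compared between genes as normalised reads per kilobase of merged exon. In MYH11 they ran from 3.32 (Eda2r) and 8.04 (Cdkn2b) to 1804 (Trp53), with Bax and Ccng1 next, at 1525 and 1523. In WT they ran from 1.43 (Cdkn2a) to 1579.9 (Trp53) and 2699 (Cdkn2d). Among the CDK inhibitor genes, Cdkn2d, Cdkn2c and Cdkn1b stood at 1269, 983 and 855 per kilobase in MYH11, and at 2699, 1033 and 531 in WT. Cdkn1a stood at 340.3 in MYH11 and 68.7 in WT. Cdkn2a stood at 30.6 in MYH11 and 1.43 in WT. Exons of Bax, Cdkn1a, Cdkn1c, Ei24, Gadd45a and Rrm2b share 192 (Bax) to 734 (Rrm2b) bases with another annotated gene. Mdm4 and Trp53 have annotated pseudogene copies, which averaged 37.1 and 1.22 normalised reads over the 9 libraries. The Bax neighbour lies on the same strand and the other neighbours on the opposite one, and the strand used in counting is not given in the sources used here. The neighbours of Ei24 and Gadd45a averaged 1.43 and 29.1 normalised reads, against 2434 and 1146 for Ei24 and Gadd45a themselves. The other neighbours have no row in the deposited table. Part of these genes' reads may belong to the neighbour or copy.

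The rest of the pathway was read from 3 lists, which were also chosen with earlier results of these data known. Of 30 other p53 targets, 11 rose and 11 fell in MYH11 vs WT (36.7% each, against 32.0% and 27.8% of all genes, median log2 fold change 0.08). Ptp4a3, a phosphatase, averaged 6296 ± 1125 normalised reads in MYH11 and 2352 ± 98.1 in WT, and Fbxw7, which marks cyclin E for destruction, averaged 1339.9 ± 63.6 and 769 ± 28.0 (limma adjusted p = 7.24e-06 and 1.54e-05). Dram1, an autophagy protein, averaged 1628 ± 218 in MYH11 and 3795 ± 31.0 in WT, and Thbs1, thrombospondin, 963 ± 309 and 5975 ± 1953 (limma adjusted p = 7.93e-06 and 4.67e-05). Of 25 regulators of p53, 23 were tested, and 9 rose and 9 fell (39.1% each, median 0.01). Those named here are all among the 9 that rose. The damage-sensing kinase genes Atm and Atr averaged 2346 ± 109 and 2689 ± 27.2 in MYH11, against 1144 ± 61.2 and 1674 ± 57.0 in WT (limma adjusted p = 5.94e-06 and 2.91e-05). Hipk2, a kinase of p53, averaged 9353 ± 1208 in MYH11 and 2208 ± 259 in WT, and Ppp1r13b, a p53-binding protein, 2371 ± 359 and 432 ± 53.7 (limma adjusted p = 3.66e-06 and 8.55e-07).

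A list of CDKs, cyclins and pocket proteins, which also holds E2F factors and other cell cycle regulators, fell for the most part. It is wider than the complexes that the CDK inhibitors act on. Of its 32 genes, 4 rose and 20 fell in MYH11 vs WT (12.5% and 62.5%, against 32.0% and 27.8% of all genes, median log2 fold change -0.24). The D-type cyclins, which partner Cdk4 and Cdk6, moved apart, with Ccnd2 at 11238 ± 1110.3 normalised reads in MYH11 and 3114 ± 92.7 in WT, and Ccnd3 at 8835 ± 351 and 21371 ± 1540.2 (limma adjusted p = 4.74e-07 and 1.53e-06). Cdc25a, the phosphatase that activates CDKs, averaged 2965 ± 518 in MYH11 and 7969 ± 95.9 in WT, and Tfdp1, the partner of E2F factors, 9794 ± 739 and 19590.0 ± 148 (limma adjusted p = 4.35e-06 and 1.52e-06). In mDE vs WT limma called 0 genes of the 3 lists, where it called only 1.24% of all genes. At an unadjusted p under 0.05 it gave 3 of 30 other p53 targets (10.0%), 6 of 23 regulators (26.1%) and 6 of 32 cell cycle genes (18.8%), against 19.8% of all genes. DESeq2 called 1 other p53 target higher and 1 lower, 3 regulators higher and 1 lower, and 2 cell cycle genes lower. Over all genes DESeq2 called 593 higher and 348 lower. edgeR called 0 in the 3 lists, against 112 higher and 76 lower over all genes.

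**Figure D5:**
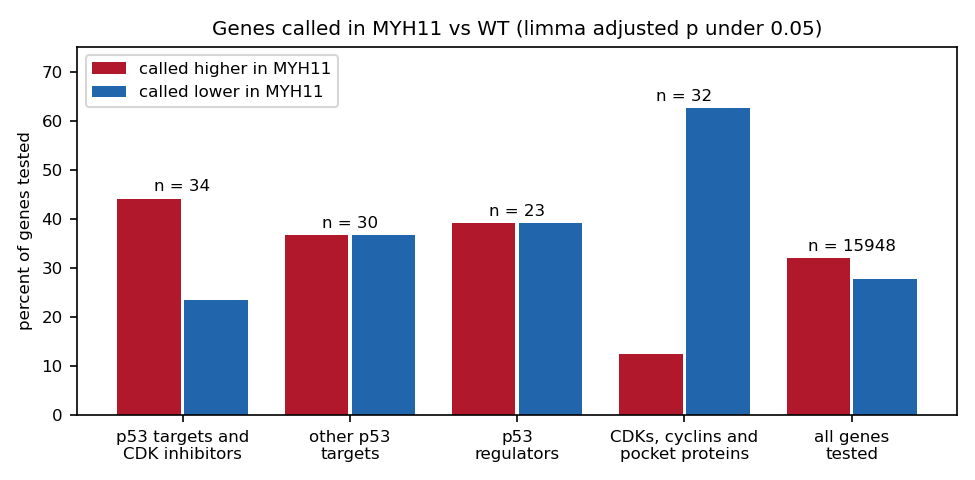
Bars give the percent of tested genes called higher or lower in MYH11 vs WT (limma adjusted p under 0.05), for the genes described here, the 3 further lists and all 15948 genes. The list of CDKs, cyclins and pocket proteins, which also holds E2F factors, is mostly lower (62.5%). Other p53 targets and p53 regulators are called equally often in both directions.

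The genes most like Cdkn1a over the 9 libraries, by Pearson correlation of log2(value + 1), were Ptp4a3 (r = 0.997), Ccdc43 (r = 0.997) and Fam174b (r = 0.996). The genes most like Phlda3 were Plxnb2 (r = 0.998), Hsd3b7 (r = 0.998) and Rasa3 (r = 0.997). These are the highest values over the 15948 genes tested, and the 9 points share the step between genotypes.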

How the data were processed

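RNA of 9 libraries, 3 per genotype, was analysed. The deposited signal values are gene read counts divided by 1 size factor per library, and whole reads were recovered for 100% of them (relative tolerance 1e-06). Per the submitters' processing notes, CASAVA 1.8.2, STAR 2.4, RSEM, DESeq2 and GRCm38 were used, with no role or order given. The authors' deposited table also holds log2 fold changes and adjusted p-values of a comparison that its header does not name; they were not used here.

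Genes passing filterByExpr (15948) were tested in R 4.3.3 with limma 3.58.1, with its trend option, on log2(value + 1), in 1 fit of all 9 libraries. Two-sided p-values were adjusted by the Benjamini-Hochberg method across those genes and called under 0.05. The code was tested on simulated data. edgeR 4.0.16 and DESeq2 1.42.0 on the recovered reads, other scalings, filters and pseudocounts, fits of 2 genotypes, a replicate block and leaving out each library were alternatives. Libraries held 39300366 to 50073097 reads, and 3 reads equal 2.56 to 3.52 normalised reads. Intervals on read ratios cover counting error only.

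All 35 genes may be named, as may up to 4 called genes of each further list with the smallest adjusted p, and for Cdkn1a and Phlda3 the 3 most correlated genes. The genes and lists were chosen with earlier results of these data known. Promoter windows (27 of 35 genes matched by symbol) are RefSeq's on GRCm38.p6.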

Additional observations from a re-analysis of the deposited data

How the results depend on the processing

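Of the 23 calls in MYH11 vs WT, 21 held in every alternative in which the gene was tested, as did 21 of 25 in MYH11 vs mDE and 0 of 1 in mDE vs WT. The count of genes higher in mDE than in WT was 3 with DESeq2, 0 when only those 2 genotypes were fitted, 0 with the replicate block, and 0 to 1 without 1 library, against 1. Leaving out 1 library gave 14 to 17 higher and 7 to 9 lower in MYH11 vs WT, and 12 to 15 and 9 to 11 in MYH11 vs mDE. Over all genes it gave 4496 to 5204 higher and 3819 to 4510 lower in MYH11 vs WT. In MYH11 vs mDE these were 4075 to 4655 and 3568 to 4093. The share of calls that held in every alternative was not counted over all genes. The replicate numbers did not pair the libraries: of 9 same-numbered pairs, 2 had a correlation of deviations over 0.1 (-0.147 to 0.125). Under the replicate block Perp in mDE vs WT (limma adjusted p = 0.0608) and Ccng1 in MYH11 vs mDE (limma adjusted p = 0.0601) missed the threshold.

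Over all genes in mDE vs WT, limma called 131 higher and 67 lower. These counts were 80 and 43 at 5 CPM in 3 libraries, 593 and 348 with DESeq2, 38 and 23 with only the 2 genotypes, 73 and 28 with the replicate block, and 24 to 164 and 6 to 93 without 1 library. The cause was not tested. Log2 fold changes that turned their sign passed no test at the turned sign. Cdkn2a in mDE vs WT (-0.36) was 0.0152 with pseudocount 4 and 0.46 with edgeR, and Gadd45b there (0.0157) was -0.00193 with TMM scaling. Without 1 library, Mdm4 and Btg2 ranged over -0.0888 to 0.17 and -0.00351 to 0.37 in MYH11 vs WT. In mDE vs WT the ranges were -1.41 to 0.16 for Cdkn2a, -0.0446 to 0.18 for Cdkn2d, -0.0783 to 0.00913 for Ei24 and -0.0846 to 0.16 for Gadd45b. In MYH11 vs mDE they were -0.24 to 0.0236 for Mdm4, -0.26 to 0.17 for Cdkn1c, -0.43 to 0.14 for Pmaip1, -0.13 to 0.00801 for Ei24, -0.0198 to 0.12 for Aen, -0.11 to 0.0169 for Btg2 and -0.0749 to 0.14 for Sesn2. Depth limits Cdkn2a, which had few reads outside MYH11, and Cdkn2b, Eda2r and Cdkn1c, which had few in every genotype. Summed reads of Cdkn1c were 58 in MYH11, 57 in mDE and 68 in WT.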
